A study of Homo sapiens with 18 samples.

Results

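Replication licensing is the loading of the replicative DNA helicase onto origins before S phase, and 10 genes were followed here under this name. ORC1, CDC6, CDT1, MCM2, MCM3, MCM4, MCM5, MCM6 and MCM7 belong to the loading step, and MCM10 acts later, when the helicase is activated. They were chosen by name and found by matching the Ensembl identifiers of the expression table to gene symbols, which identified all 10 among 15258 listed genes. All 10 also lay among the 14512 genes that averaged 1 TPM or more and were tested. TPM (transcripts per 1e+06 transcripts) is an abundance scaled by gene length, so levels of different genes can be compared.

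The mRNA came from MEL624, an established human melanoma cell line, grown in standard medium with no treatment. The control line was wild type and carried a random sgRNA, a guide RNA for genome editing. PCIF1, the enzyme that makes m6Am by methylating the first nucleotide after the cap where it is an adenosine, was knocked out in 2 other lines, KO1 and KO2, and each of these was 1 clone. Each of the 3 lines had 3 libraries of input mRNA, replicates A, B and C, described as biological replicates, and the 9 m6A-immunoprecipitated libraries of the series were not analysed here. Each group was 1 line, so the tests rest on how far replicate libraries scattered and not on how independently edited clones vary. The PCIF1 transcript averaged 57.6 ± 3.84 TPM in the control line (SD, n = 3), against 24 ± 1.77 TPM for KO1 and 60.3 ± 3.86 TPM for KO2. A small edit need not lower the level of a transcript, so the PCIF1 level in KO2 checks neither its label nor its genotype.

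As background, the origin recognition complex, of which ORC1 is the largest subunit, binds origins and recruits CDC6, a related ATPase. CDT1 then brings in the ring of MCM2 to MCM7, and rings are loaded in pairs around the DNA in an inactive form. Cyclin-dependent and DDK kinases later turn the loaded ring into the active helicase, a step in which MCM10 takes part, and geminin (GMNN) binds CDT1 to prevent loading outside the proper window. Most of these genes are known targets of E2F transcription factors, which drive entry into S phase, and their transcripts are abundant in dividing cells.

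The promoters are shown first, since E2F-type words are what most of these genes have in common that the choice by name did not use. Promoter windows of 8 of the 10 genes were available from RefSeq on GRCh38.p14, each from 250 bases before to 50 bases after the first transcribed base, and MCM4 and MCM5 were not among them. The words searched were TTTCCCGC, TTTCGCGC, TTTGCCGC and TTTGGCGC on both strands, and occurrences may overlap. At least 1 word lay in 6 of the 8 windows (75%), those of MCM2, MCM3, MCM6, MCM7, CDC6 and CDT1. A word was held by 3.31% of all 35116 RefSeq windows and by 5.11% of the 14919 windows of tested genes. These shares count every window of a gene, whereas each of the 8 genes was read in 1 window, the first listed (MCM7 had 3). Lists of related genes, described below and also read in 1 window per gene, held words as well. The share was 66.7% for 3 MCM relatives, 36.4% for helicase activation, 34.6% for the replication fork and 29.4% for E2F and RB. It was 16.7% for other ORC subunits, 13.3% for mitosis, 12.5% for nucleotide supply and 9.09% for licensing regulators. The word CCAAT, searched on both strands, was in 6 of the 8 windows, against 35.4% of the windows of tested genes. In the related lists its share ran from 29.4% (E2F and RB) to 86.7% (mitosis). A match describes letters only and is no evidence that a factor bound. The words were chosen from knowledge of this gene family. Other spellings and near matches were not searched, so a window without these words may still hold a similar one.

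The following stretches run 5′ to 3′ from 200 bases before to 29 bases after the first transcribed base, which is counted as position 0, and capitals mark the E2F-type words. MCM6 held the most occurrences, 4 in overlapping pairs, and lies on the minus strand at chr2:135876414-135876643. MCM3 and CDC6 are the other promoters with a word whose transcripts passed the test in KO1. MCM3 lies on the minus strand at chr6:52284713-52284942 and CDC6 on the plus strand at chr17:40287679-40287908. MCM2, on the plus strand at chr3:127598211-127598440, had an overlapping pair of words beginning 2 and 6 bases after its start, and its transcript passed in neither clone. ORC1, on the minus strand at chr1:52404394-52404623, had none of the words, and its transcript passed in both clones.
MCM6: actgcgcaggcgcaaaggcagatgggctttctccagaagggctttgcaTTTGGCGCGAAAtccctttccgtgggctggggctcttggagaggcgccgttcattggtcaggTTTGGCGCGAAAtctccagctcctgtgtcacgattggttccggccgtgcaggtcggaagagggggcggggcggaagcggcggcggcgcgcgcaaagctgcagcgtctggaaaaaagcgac
MCM3: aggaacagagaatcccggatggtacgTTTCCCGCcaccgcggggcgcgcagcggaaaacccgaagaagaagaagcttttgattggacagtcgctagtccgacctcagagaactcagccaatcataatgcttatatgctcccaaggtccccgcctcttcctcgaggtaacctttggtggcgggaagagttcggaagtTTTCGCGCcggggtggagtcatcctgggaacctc
CDC6: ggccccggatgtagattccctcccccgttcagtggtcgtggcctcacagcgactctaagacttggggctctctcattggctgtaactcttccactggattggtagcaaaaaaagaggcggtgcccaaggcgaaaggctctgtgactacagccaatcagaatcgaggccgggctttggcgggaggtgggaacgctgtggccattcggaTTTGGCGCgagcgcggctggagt
MCM2: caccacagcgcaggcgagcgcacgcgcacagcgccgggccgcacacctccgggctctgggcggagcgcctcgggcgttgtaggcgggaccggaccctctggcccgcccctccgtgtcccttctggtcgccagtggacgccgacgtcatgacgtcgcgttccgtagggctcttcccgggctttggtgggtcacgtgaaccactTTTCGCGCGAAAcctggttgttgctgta
ORC1: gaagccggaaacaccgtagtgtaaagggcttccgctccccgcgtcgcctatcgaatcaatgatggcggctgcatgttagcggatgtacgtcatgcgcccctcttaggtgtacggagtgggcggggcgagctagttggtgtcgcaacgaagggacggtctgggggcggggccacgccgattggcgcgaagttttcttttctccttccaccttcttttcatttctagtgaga

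In MCM6 the words began 152, 148, 90 and 86 bases before the start. The words of MCM3 began 174 and 4 bases before it, the nearer one running over the start itself, and that of CDC6 began 7 bases after it. Among the 8 genes with a window, those that passed in KO1 were 3 of the 6 with a word and 1 of the 2 without, and those that passed in KO2 were 0 of the 6 and 1 of the 2. This split holds only for the exact words searched.

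All 10 transcripts were abundant in every line. Their mean levels over the 9 libraries lay between 41.0 TPM (MCM10) and 535 TPM (MCM7), at percentiles 70.3 to 98.6 of the tested genes, whose median was 19.3 TPM. MCM10 had 500 to 684 reads per library, ORC1 515 to 736 and MCM7 5338 to 7086. Counting noise is larger for the genes with fewer reads, and its part in their small changes was not tested. In control the order from high to low was MCM7, MCM2, MCM4, MCM3, MCM6, MCM5, CDT1, CDC6, ORC1 and MCM10, and only the neighbours MCM5 and CDT1 overlapped between libraries. In KO1 and in KO2 MCM4 stood above MCM2. In both clones the ranges of CDT1 and MCM5 overlapped, as did those of CDC6 and ORC1.

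**Figure D1:**
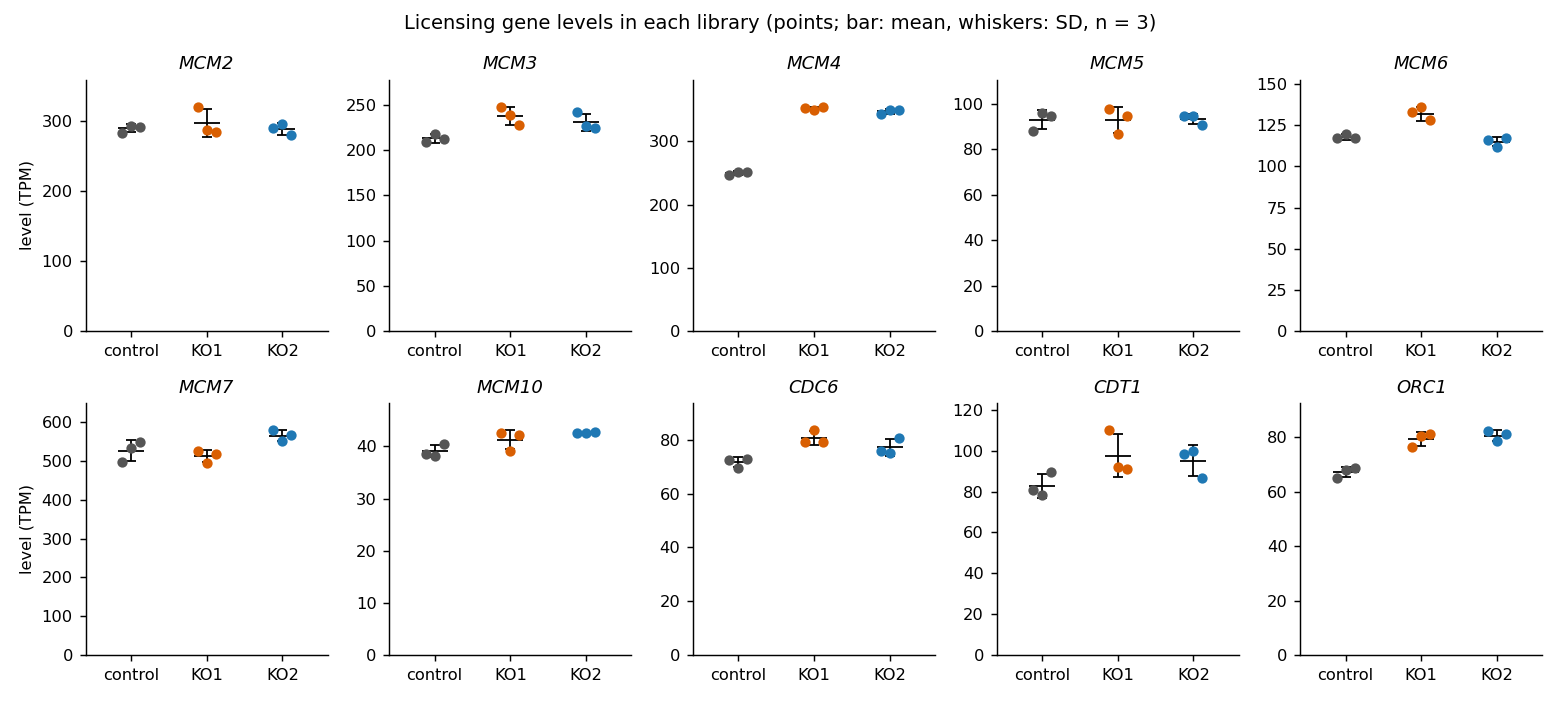
Level of each licensing gene in TPM (linear axes from 0) in the 9 libraries; points are libraries, bars are means and whiskers SD (n = 3 per line). MCM4 lies at 247 to 252 TPM in control and at 343 to 354 TPM in the clones, while MCM5 overlaps between all lines.

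In KO1 5 of the 10 transcripts were higher than in control (MCM3, MCM4, MCM6, CDC6 and ORC1) and 0 were lower. Among all 14512 tested genes 34.3% passed in KO1, and 20.2% passed with a higher level. The median log2 fold change of the 10 genes was 0.16, against 0.04 for all tested genes. In KO2 2 of the 10 were higher (MCM4 and ORC1) and 0 lower, with a background of 30.4% of tested genes passing and 15.6% passing higher. The median of the 10 was 0.11 there, against 0.01 for all tested genes. With 10 genes, 2 is close to what the background share gives. With the median of 25 neighbouring genes on each side subtracted the order of the clones turned: 3 of the 10 were higher in KO1 (background 16.1%) and 6 in KO2 (background 13.1%), so both counts depend on that choice. The 2 comparisons share the control libraries, so their values are given side by side and are not independent. Centring each library on its median lowered the share of passing genes that were higher in KO1 from 58.9% to 49.7%, so the direction over all genes depends on the scaling. All values come from bulk RNA, in which more cells in a given phase and more transcript per cell cannot be told apart.

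**Figure D2:**
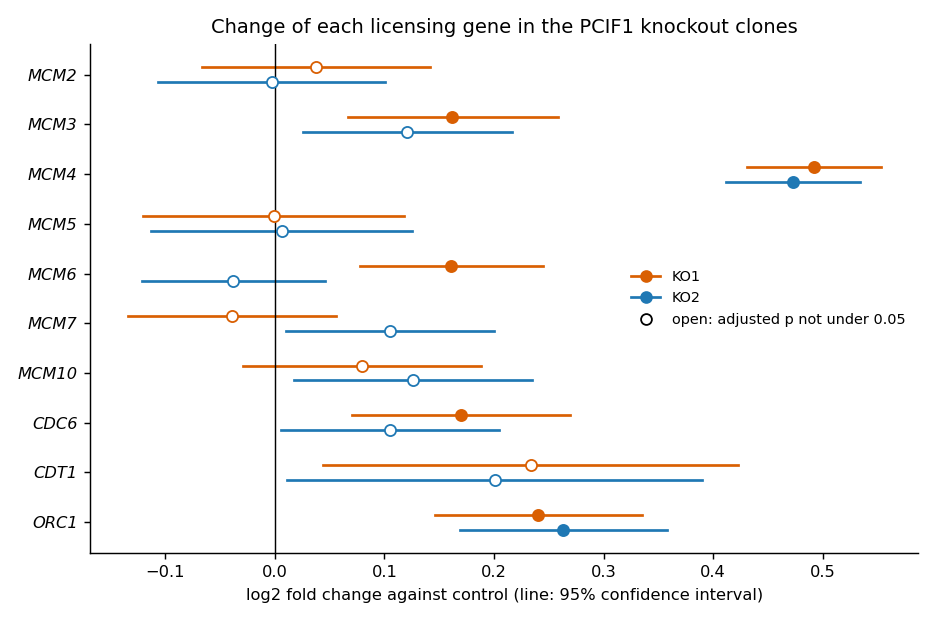
Log2 fold change of each licensing gene against control in KO1 (orange) and KO2 (blue), with lines for the 95% confidence interval; filled points passed an adjusted p of 0.05. MCM4 stands apart at 0.49 and 0.47, ORC1 follows at 0.24 and 0.26, and MCM5 lies at 0 in both.

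ORC1 (ENSG00000085840), the origin-binding ATPase, is a protein-coding gene at chr1:52372829-52404423 in hg38, on the minus strand. Its level was 65.0, 68.0 and 68.7 TPM in the control libraries, 76.6, 80.3 and 81.2 TPM in KO1, and 82.3, 78.5 and 81.1 TPM in KO2. Every clone library was above every control library, and the clones overlapped each other. ORC1 rose by 0.24 on the log2 scale in KO1 (SE 0.0424, limma adjusted p = 0.00194) and by 0.26 in KO2 (SE 0.0424, adjusted p = 0.00113). The clones differed by 0.02 (95% confidence interval -0.07 to 0.12).

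CDC6 (ENSG00000094804, chr17:40287879-40304657, plus strand) encodes the loader ATPase that joins ORC. Its level was 72.6, 69.7 and 73.1 TPM in control, at 79.2, 83.6 and 79.4 TPM in the KO1 libraries, and at 75.9, 75.0 and 80.8 TPM in those of KO2. All clone libraries exceeded all control libraries, by a margin that was narrow in KO2. CDC6 rose by 0.17 in KO1 (SE 0.0447, limma adjusted p = 0.0153), and its log2 fold change in KO2 was 0.11 (adjusted p = 0.103). The call in KO1 was lost with median centring (adjusted p = 0.0501), on recovered reads (0.0651), with neighbouring genes subtracted (0.138), and when control replicate B (0.0625) or replicate B of KO1 (0.0586) was left out. With neighbouring genes subtracted CDC6 instead passed in KO2, at 0.19 (adjusted p = 0.0262).

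CDT1 (ENSG00000167513, chr16:88803789-88809258, plus strand), which delivers the MCM ring, varied most between replicates. It was at 80.9, 78.1 and 89.5 TPM in control, at 110, 92.0 and 91.1 TPM in the KO1 libraries, and at 98.6, 100 and 86.7 TPM in those of KO2. KO1 lay above control in every library, while the lowest KO2 library lay below the highest control library. The log2 fold changes were 0.23 in KO1 (SE 0.085, limma adjusted p = 0.0572) and 0.20 in KO2 (SE 0.085, adjusted p = 0.103), so neither passed. CDT1 passed in KO2 without KO2 replicate C (adjusted p = 0.0477) and in KO1 without control replicate C (0.0428) or KO2 replicate C (0.0426). It also passed on recovered reads in KO1 (0.0339) and KO2 (0.0428), and with quantile normalization in KO1 (0.0496). The 25 tested genes on each side of CDT1 had a median log2 fold change of 0.14 in KO1 and 0.09 in KO2, and less these medians CDT1 was at 0.09 and 0.11.

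The balance of CDT1 with its inhibitor was also measured. GMNN averaged 53.7 ± 1.29 TPM in the control line (SD, n = 3), against 59.6 ± 2.21 TPM for KO1 and 54.3 ± 3.14 TPM for KO2, and passed in neither clone (limma adjusted p = 0.0516 and 0.881). With neighbouring genes subtracted GMNN was at 0.30 and 0.21 and passed in both (adjusted p = 0.00269 and 0.0201). The log2 ratio of CDT1 to GMNN was 0.62 ± 0.13 in control, 0.71 ± 0.14 in KO1 and 0.81 ± 0.20 in KO2. Libraries of the 3 lines overlapped in this ratio. The exact two-sided permutation test gave p = 0.5 for KO1 and p = 0.2 for KO2 against control, where 3 against 3 cannot go below 0.1.

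Among the MCM ring genes, MCM4 (ENSG00000104738) was the one with a large change. It was at 247, 252 and 251 TPM in control, at 353, 349 and 354 TPM in the KO1 libraries, and at 343, 349 and 350 TPM in those of KO2, which is 141% and 139% of the control mean. The clones overlapped each other and lay far above control, with an SD of 2.55 to 3.65 TPM within a line. MCM4 rose by 0.49 on the log2 scale in KO1 (SE 0.0275, limma adjusted p = 1.29e-06) and by 0.47 in KO2 (SE 0.0275, adjusted p = 1.49e-06). The difference between the clones was -0.02 (95% confidence interval -0.08 to 0.04). The 25 tested genes on each side had median log2 fold changes of 0.03 and 0.004, and MCM4 less these medians still passed (adjusted p = 5.89e-05 and 5.36e-05).

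MCM3 (ENSG00000112118, chr6:52264014-52284881, minus strand) was at 209, 218 and 212 TPM in control, at 248, 239 and 228 TPM in the KO1 libraries, and at 242, 227 and 225 TPM in those of KO2. All clone libraries were above all control libraries. MCM3 rose by 0.16 in KO1 (limma adjusted p = 0.0153) and had a log2 fold change of 0.12 in KO2 (adjusted p = 0.0571). The adjusted p in KO1 was 0.0555 without KO1 replicate A and 0.0787 with neighbouring genes subtracted. In KO2 MCM3 passed with median centring (adjusted p = 0.0433) and with neighbouring genes subtracted (0.0446).

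MCM6 (ENSG00000076003, chr2:135839626-135876443, minus strand) separated the clones. It was at 117, 120 and 117 TPM in control, at 133, 136 and 128 TPM in the KO1 libraries, and at 116, 112 and 117 TPM in those of KO2. KO1 lay above both other lines without overlap, and every KO2 library lay below every control library, the closest by less than the rounding of these values. MCM6 rose by 0.16 in KO1 (limma adjusted p = 0.00845), with a log2 fold change of -0.04 in KO2 (adjusted p = 0.489), and KO2 was lower than KO1 by a log2 difference of -0.20 (adjusted p = 0.00343). On recovered reads the KO1 change was 0.11 with an adjusted p of 0.0556, and with neighbouring genes subtracted the difference between the clones was -0.13 with an adjusted p of 0.0562.

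MCM7 (ENSG00000166508, chr7:100092233-100101940, minus strand), the most abundant ring gene, was at 497, 533 and 550 TPM in control, at 525, 494 and 518 TPM in the KO1 libraries, and at 579, 552 and 568 TPM in those of KO2. KO2 lay above both other lines, with a very small gap to the highest control library. The log2 fold changes were -0.04 in KO1 (limma adjusted p = 0.521) and 0.11 in KO2 (adjusted p = 0.0894), and KO2 exceeded KO1 by 0.14 (adjusted p = 0.0297). This last call was lost without KO1 replicate B (adjusted p = 0.104), KO1 replicate C (0.0638), KO2 replicate A (0.0948) or KO2 replicate C (0.0646), with no variance trend (0.0859) and with the replicate letter as a block (0.0529). In KO2 against control MCM7 passed with neighbouring genes subtracted (0.0411). The miRNA gene MIR25 lies inside MCM7 on the same strand and was listed with 16 to 58.6 TPM per library, values that cannot be separated from reads of its host.

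MCM2 (ENSG00000073111, chr3:127598410-127622436, plus strand) and MCM5 (ENSG00000100297, chr22:35400134-35425431, plus strand) passed in neither clone. MCM2 was at 283, 294 and 292 TPM in control, at 321, 288 and 285 TPM in the KO1 libraries, and at 291, 296 and 281 TPM in those of KO2. MCM5 was at 88.0, 96.1 and 94.8 TPM in control, at 97.7, 86.6 and 94.6 TPM in the KO1 libraries, and at 94.4, 94.7 and 90.8 TPM in those of KO2. The 3 lines overlapped for both genes. The 95% confidence interval of the log2 fold change ran from -0.07 to 0.14 in KO1 and from -0.11 to 0.10 in KO2 for MCM2. For MCM5 it ran from -0.12 to 0.12 in KO1 and from -0.11 to 0.13 in KO2, so changes of the size seen for MCM4 lie outside both pairs of intervals.

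MCM10 (ENSG00000065328, chr10:13161558-13211110, plus strand), which is not part of the ring and acts when the helicase is activated, was the least abundant of the 10. It was at 38.6, 38.2 and 40.4 TPM in control, at 42.5, 39.2 and 42.1 TPM in the KO1 libraries, and at 42.6, 42.5 and 42.8 TPM in those of KO2. KO1 overlapped control and KO2 lay above it. The log2 fold changes were 0.08 (limma adjusted p = 0.238) and 0.13 (adjusted p = 0.0769), so neither passed. With neighbouring genes subtracted MCM10 passed in KO2, at 0.16 (adjusted p = 0.0421).

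The ring holds MCM2 to MCM7 in equal numbers as protein, but their transcripts were unequal. The highest of the 6 transcripts exceeded the lowest by 5.55 to 5.8 times in the control, 5.38 to 5.7 times in the KO1 and 5.83 to 6.25 times in the KO2 libraries. The summed level of the 6 was 1491 ± 42.5 TPM in the control line (SD, n = 3, range 1442 to 1517), against 1626 ± 45.3 TPM for KO1 (1593 to 1677) and 1643 ± 20 TPM for KO2 (1631 to 1666). MCM4 made up 16.8 ± 0.31% of this sum in control, 21.7 ± 0.54% in KO1 and 21.1 ± 0.47% in KO2 (SD, n = 3). The share of MCM7 was 35.3 ± 0.87% in control, 31.5 ± 0.64% in KO1 and 34.5 ± 0.52% in KO2. The shares add to the whole, so a larger share of MCM4 alone lowers the others. The MCM4 share ranged from 16.6 to 17.1% in control and from 20.6 to 22% in the clones.

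**Figure D3:**
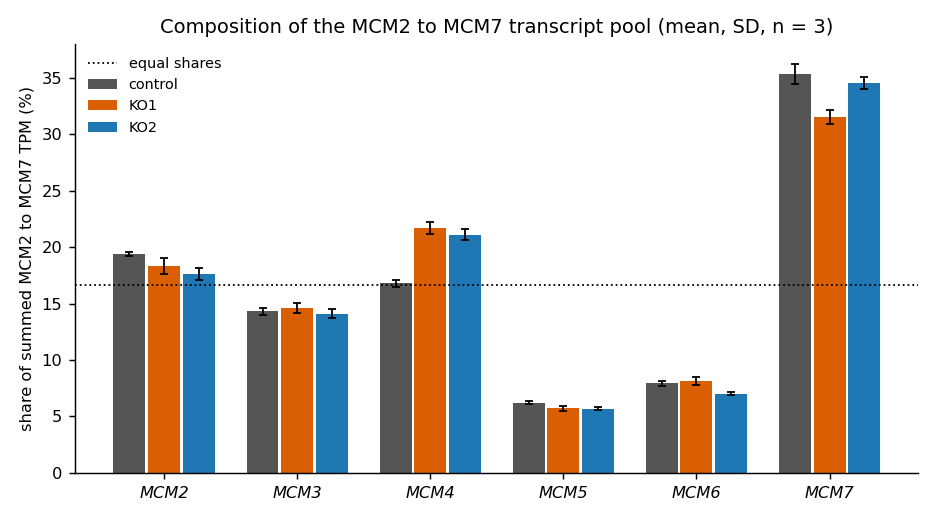
Share of each gene in the summed TPM of MCM2 to MCM7, in percent, as bars (mean) with SD (n = 3) for control, KO1 and KO2; the dotted line marks equal shares. MCM4 goes from 16.8% in control to 21.7% and 21.1% in the clones, and MCM7 is the largest share in all 3 lines.

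The clones were also compared with each other and, as a mean, with control. Between KO2 and KO1, 1 of the 10 genes was higher (MCM7) and 1 lower (MCM6). The background was 28.7% of tested genes passing, 11.8% higher and 16.9% lower, and median centring moved the share of higher genes among those passing from 41.1% to 55.5%. For the mean of both clones against control 5 of the 10 were higher (MCM3, MCM4, CDC6, CDT1 and ORC1) and 0 lower. There 34.4% of tested genes passed and 19.3% passed higher, and on recovered reads the share of higher genes among those passing went from 56.3% to 45.9%. CDT1 was at 0.22 with a limma adjusted p of 0.0441 in this contrast and passed in 10 of its 19 alternatives.

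Transcription of MCM4 (chr8:47960185-47978160, plus strand) starts next to that of PRKDC (minus strand), the catalytic subunit of the DNA-dependent protein kinase of double-strand break repair. The most upstream annotated starts of the pair lie 7 bases apart and point away from each other, and the starts of the canonical transcripts lie 805 bases apart. PRKDC was at 178, 174 and 180 TPM in control, at 318, 314 and 332 TPM in the KO1 libraries, and at 294, 302 and 268 TPM in those of KO2. Every clone library was far above control. PRKDC rose by 0.86 on the log2 scale in KO1 (SE 0.0461, limma adjusted p = 9.74e-07) and by 0.70 in KO2 (SE 0.0461, adjusted p = 3.60e-06), and KO2 was lower than KO1 by a log2 difference of -0.16 (adjusted p = 0.0276). UBE2V2, the nearest tested gene on the other side of MCM4, had log2 fold changes of 0.15 (adjusted p = 0.143) and -0.009 (adjusted p = 0.943).

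ORC1 has a partner of the same kind, PRPF38A, a splicing factor gene whose start lies 179 bases away on the opposite strand. PRPF38A was at 62.1, 63.0 and 57.2 TPM in control, at 71.1, 72.5 and 68.2 TPM in the KO1 libraries, and at 71.9, 69.2 and 74.6 TPM in those of KO2. Clone and control libraries did not overlap. The gene rose by 0.22 in KO1 (limma adjusted p = 0.0089) and by 0.24 in KO2 (adjusted p = 0.0051), close to the 0.24 and 0.26 of ORC1. The pairs of MCM2 with TPRA1 (143 bases between the most upstream starts, 7678 between the canonical ones) and of MCM7 with AP4M1 (391 bases) showed no such rise. TPRA1 had log2 fold changes of -0.10 and -0.08 (adjusted p = 0.157 and 0.233). AP4M1 had -0.19 and -0.004 (adjusted p = 0.146 and 0.981), and its gene body overlaps that of MCM7, so its values are uncertain without the strand of the counting. These pairs were examined as such after the values of MCM4 and PRKDC had been seen.

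Over all 1505 pairs of tested genes with starts at most 1000 bases apart on opposite strands, 523 paired genes were higher in KO1, and the partner was also higher for 108 of them (20.7%). Of all tested genes 20.2% were higher in KO1. In KO2 479 paired genes were higher and the partner was also higher for 178 (37.2%), where 15.6% of all tested genes were higher. A pair in which both genes were higher is counted from each of its genes. The share of higher genes among all paired genes, a closer background, was not computed. Neighbouring genes also share their copy number, whose part in these counts was not tested.

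**Figure D4:**
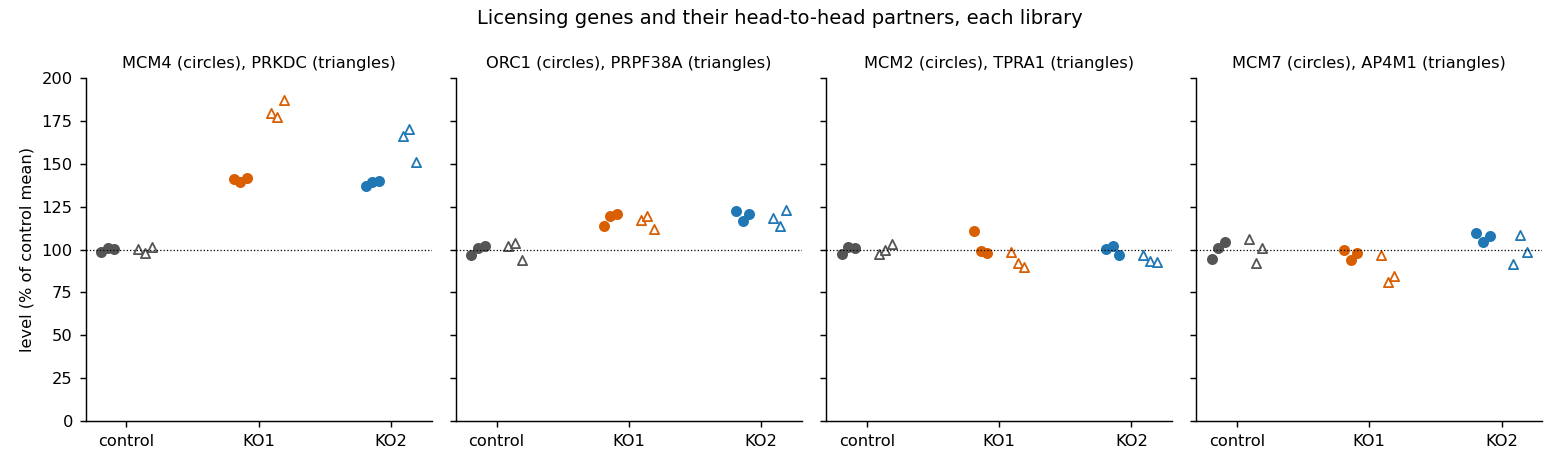
Level of 4 licensing genes (filled circles) and their head-to-head partners (open triangles) in each library, as percent of the gene's control mean, on a linear axis. MCM4 and PRKDC, and ORC1 and PRPF38A, lie above 100% in all 6 clone libraries, while TPRA1 lies below 100% in all 6 and AP4M1 in the 3 KO1 libraries. MCM2 lies around 100% in both clones, and MCM7 lies below it in the 3 KO1 and above it in the 3 KO2 libraries.

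The enzyme PCIF1 acts on transcripts that begin with A. By the start of the GENCODE canonical transcript, MCM7 and CDC6 began with A, which is 2 of the 10 genes against 45.0% of 14396 tested genes. MCM3, MCM4, MCM6 and MCM10 began with G, and MCM2, MCM5, CDT1 and ORC1 with C. Of these, MCM4 (G) and ORC1 (C) rose in both clones, and no RefSeq start was available for MCM4. Any part of the start base in these changes was not tested. An annotated start need not be the start used in these cells, and starts were not measured in this table.

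The other genes of the pathway were taken from lists drawn up by function. For every list below the background is that of all tested genes. In KO1 34.3% of these passed and 20.2% passed higher, and in KO2 30.4% passed and 15.6% passed higher. A count near these shares is no result about a list. Of the 6 other ORC subunits and associates, 1 rose in KO1 and 2 in KO2, and 0 fell. ORC2 rose by 0.43 and 0.53 (limma adjusted p = 0.000379 and 8.55e-05), from 27.7 ± 0.81 TPM to 37.3 ± 1.03 and 40 ± 2.41 TPM (SD, n = 3). It lies in a stretch that moved as a whole: the 25 tested genes on each side had medians of 0.54 and 0.40, and ORC2 less these medians passed in neither clone (adjusted p = 0.109 and 0.0702). LRWD1, an ORC-associated protein, rose by 0.24 in KO2 (adjusted p = 0.0473), and its KO1 value was 0.04. The lowest KO2 library (32.3 TPM) lay just below the highest control library (32.5 TPM), and the call was lost with quantile normalization (0.0539) and with neighbouring genes subtracted (0.0515). ORC6 was at -0.02 and -0.14, and ORC5 at -0.13 and 0.02, none of which passed.

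Of 11 regulators of licensing, 3 rose and 0 fell in each clone, with a background of 20.2% passing higher in KO1 and 15.6% in KO2. In KO1 the counts were 3 and 1 with median centring, 2 and 1 on recovered reads, and 4 and 2 with neighbouring genes subtracted. SKP2, the F-box protein of a ubiquitin ligase for CDT1 and other cell cycle proteins, was at 72.7, 67.4 and 66.1 TPM in control, at 90.1, 90.4 and 90.3 TPM in the KO1 libraries, and at 82.3, 74.4 and 83.2 TPM in those of KO2. It was highest in KO1 without overlap, and KO2 lay between. SKP2 rose by 0.39 and 0.22 (limma adjusted p = 0.000409 and 0.0118). DTL, the substrate receptor that marks CDT1 for destruction in S phase, rose by 0.18 and 0.21 (adjusted p = 0.0149 and 0.0077), the former not passing on recovered reads (0.0503). CCNF, the F-box protein that targets CDC6, rose by 0.35 in KO1 (adjusted p = 0.00841) and was at -0.10 in KO2 (adjusted p = 0.375). MCMBP, a binding partner of the MCM proteins, rose by 0.33 in KO2 (adjusted p = 6.14e-05), where the 25 tested genes on each side had a median of 0.32, less which it did not pass (adjusted p = 0.831), and was at 0.0008 in KO1.

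Among 3 relatives of the MCM family, 1 fell in each clone and 0 rose. This was MCM8, a helicase of homologous recombination, with 36.9 ± 1.28 TPM in the control line (SD, n = 3), against 28.8 ± 1.35 TPM for KO1 and 29.2 ± 1.67 TPM for KO2. MCM8 fell by 0.36 and 0.34 (limma adjusted p = 0.00173 and 0.00237), and its chromosomal neighbours had medians of -0.42 and -0.51, less which it passed in neither (adjusted p = 0.494 and 0.0657). MCM9 was at -0.11 and -0.37, and HROB, which works with MCM8 and MCM9, at 0.03 and 0.01, with neither passing. On recovered reads MCM9 passed in KO2, at -0.38 (limma-voom adjusted p = 0.027).

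Among 17 genes of helicase activation, KO1 had 4 that rose and 3 that fell, and KO2 had 1 of each. Both E-type cyclins, which activate CDK2 at the start of S phase, changed in KO1 in opposite directions. CCNE2 rose by 0.68 and 0.38 (limma adjusted p = 0.000212 and 0.00649), and CCNE1 fell by 0.66 in KO1 (adjusted p = 0.000366) with a value of -0.21 in KO2 (adjusted p = 0.104), or -0.35 with neighbouring genes subtracted (adjusted p = 0.00737). CDK2 fell by 0.31 in both clones (adjusted p = 0.00163 and 0.0016). TICRR, which links the kinase to helicase activation, rose by 0.49 in KO1 (adjusted p = 0.000409) and was at 0.19 in KO2 (adjusted p = 0.0507), where it passed with median centring (0.0387), on recovered reads (0.0322) and with neighbouring genes subtracted (0.0254).

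Among 29 genes of the replication fork, KO1 had 9 that rose and 5 that fell, against 6 and 5 for KO2. The sliding clamp gene PCNA averaged 513 ± 17.7 TPM in the control line (SD, n = 3), against 375 ± 18.9 TPM for KO1 and 360 ± 15.5 TPM for KO2. PCNA fell by 0.45 and 0.51 (limma adjusted p = 8.34e-05 and 2.89e-05), and the 25 tested genes on each side had medians of -0.47 and -0.53, less which PCNA passed in neither clone (adjusted p = 0.827 and 0.849). POLE2, a subunit of the leading-strand polymerase, rose by 0.40 and 0.76 (adjusted p = 0.02 and 0.000592), with 0.0557 in KO1 on recovered reads. POLD4, a small subunit of polymerase delta, fell by 0.45 and 0.34 (adjusted p = 0.00186 and 0.00962), with 0.0559 in KO2 when neighbouring genes were subtracted. CLSPN, the checkpoint mediator claspin, rose by 0.48 and 0.14 (adjusted p = 6.36e-05 and 0.0468), the latter lost with quantile normalization (0.0671) and on recovered reads (0.0853). On recovered reads 6 fork genes rose and 7 fell in KO1, so the direction of this list depends on the scaling.

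Among 9 genes of nucleotide supply, KO1 had 2 that rose and 1 that fell, and KO2 had 3 of each, or 3 and 1 with median centring or with neighbouring genes subtracted. TYMS, thymidylate synthase, fell by 0.38 and 0.52 (limma adjusted p = 1.58e-05 and 1.49e-06), beside neighbour medians of -0.49 and -0.55, and passed in neither clone less these (adjusted p = 0.128 and 0.744). RRM2, the regulated subunit of ribonucleotide reductase, rose by 0.39 in KO1 (adjusted p = 0.000263) and was at 0.09 in KO2. SLBP, which binds histone mRNA stem-loops, rose by 0.24 in KO2 (adjusted p = 0.00477) and was at 0.12 in KO1.

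Genes of E2F and RB control and of mitosis give the cell cycle setting of these values. Among 20 E2F and RB genes, KO1 had 8 that rose and 0 that fell, with a median log2 fold change of 0.15, and KO2 had 6 and 3, with a median of 0.008 that turned to -0.007 on recovered reads. CDK6, a kinase that inactivates RB, rose by 0.81 and 0.30 (limma adjusted p = 5.30e-06 and 0.00278). TFDP1, the partner of E2F factors, rose by 0.23 and 0.17 (adjusted p = 0.0011 and 0.00614). RBL1, an RB relative, rose by 0.25 and 0.29 (adjusted p = 0.027 and 0.016), and E2F4 by 0.12 and 0.25 (adjusted p = 0.0151 and 0.000272). In KO1 the RBL1 call was lost with neighbouring genes subtracted (0.0774) and that of E2F4 with median centring (0.0744), on recovered reads (0.193) and with neighbouring genes subtracted (0.0947). With median centring, quantile normalization, recovered reads or neighbouring genes subtracted 1 gene of this list fell in KO1. The genes named here were picked for passing in both clones in the same direction, and others parted. CDKN1A rose by 0.24 in KO1 and fell by 0.70 in KO2 (limma adjusted p = 0.00148 and 1.49e-06). Between the clones 8 of the 20 were lower in KO2 and 2 were higher, with a background of 16.9% and 11.8%, or 7 and 3 with median centring. These counts were 8 and 5 on recovered reads, and 6 and 4 with neighbouring genes subtracted.

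Among 19 mitosis genes, KO1 had 6 that rose and 2 that fell, with a median of 0.08, and KO2 had 3 and 10, with a median of -0.19. In KO1 the counts were 4 and 3 with median centring or on recovered reads, so the balance of this list there depends on the scaling. In KO2 they were 0 and 12 with neighbouring genes subtracted. Between the clones 16 of the 19 were lower in KO2 and 1 was higher, with a background of 16.9% and 11.8%. These counts were 12 and 2 with median centring, and 11 and 0 with neighbouring genes subtracted. MKI67, the proliferation antigen, rose by 0.56 and 0.31 (limma adjusted p = 4.63e-05 and 0.00176), and less its neighbours it was at -0.09 in KO2 (adjusted p = 0.248). BUB1, a spindle checkpoint kinase, fell by 0.22 and 0.40 (adjusted p = 0.00255 and 6.24e-05), and BUB1B by 0.13 and 0.27 (adjusted p = 0.0442 and 0.00123), with 0.0508 in KO1 under quantile normalization. CDK1 rose by 0.62 in KO2 (adjusted p = 0.000663), where it was at 0.08 less its neighbours (adjusted p = 0.537), and was at 0.08 in KO1. The share of cells in each cycle phase was not measured, and its part in these values was not tested.

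**Figure D5:**
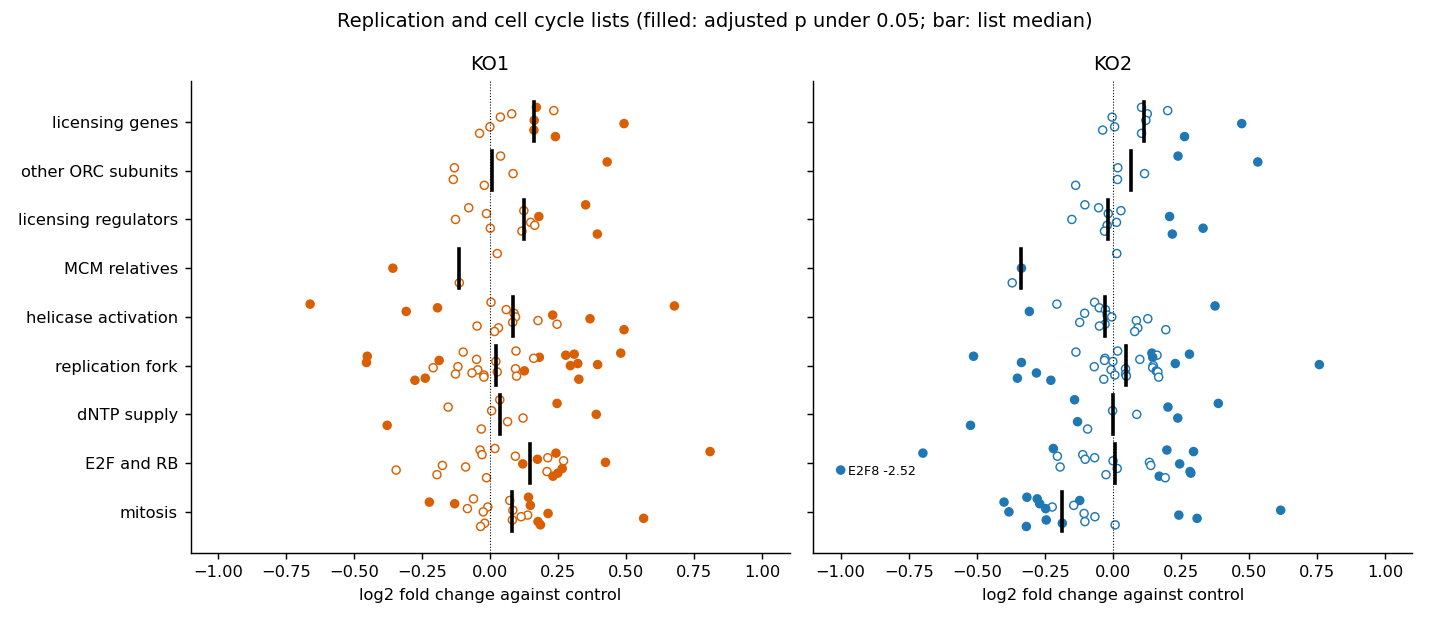
Log2 fold change against control of the licensing genes and 8 related lists in KO1 (left) and KO2 (right), 1 point per gene; filled points passed an adjusted p of 0.05 and bars mark list medians. E2F8 lies beyond the left edge at -2.52 in KO2, drawn at the edge; the mitosis list has its median at -0.19 in KO2 and 0.08 in KO1.

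The genes whose pattern over the 9 libraries came closest to the mean pattern of the 10 were named by the root mean square distance of log2 deviations, among genes outside the lists that averaged 5 TPM or more. The mean deviation of the 10 was -0.10 in control (-0.13 to -0.07), 0.06 in KO1 (0.03 to 0.10) and 0.04 in KO2 (0.03 to 0.06). The closest were CCNY (distance 0.0264), RPL11 and GUK1 (both 0.0272), KCTD5 (0.0282) and EXOC7 (0.0317). They were chosen for this pattern, so their own changes are no further result.

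Library depth, recovered from the values, ran from 7848089 to 11393206 reads on genes, 84602764 in all, and replicates of a line correlated over genes with r from 0.987 to 0.99. The chi-square per gene between the reads of 2 replicates was highest for replicates B and C of KO2 (3.71) and lay between 1.22 and 2.18 for the other pairs. As a check of the cell type, 3 of 10 melanoma markers were in the table (MITF, PRAME and MIA), and SOX10, MLANA, PMEL, TYR, DCT, S100B and S100A1 were not among the genes listed. The summed level of the 3 was 104 TPM in control, 143 to 145 TPM in KO1 and 164 to 166 TPM in KO2. PRAME rose by 0.85 and 0.79 (limma adjusted p = 2.28e-07 and 3.94e-07), while MITF, the melanocyte lineage factor, fell by 0.50 in KO1 and rose by 0.43 in KO2. Of the markers of other cell types, 0 of 5 leukocyte, 0 of 3 endothelial and 0 of 4 epithelial genes were in the table, and 3 of 5 fibroblast genes summed to 10.8 to 13.5 TPM per library. Of the fibroblast genes, LUM averaged 0.0665 TPM in control, 2.39 TPM for KO1 and 1.15 TPM for KO2, and PDGFRB 12.2, 10 and 9.49 TPM. These marker levels moved with the lines, and their part in the licensing gene values was not tested.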

How the data were processed

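Per the labels' protocols, Trizol-extracted RNA was purified as mRNA on magnetic beads and made into libraries with a directional kit. The authors deposited log2 TPM values of 15258 genes for the 9 input libraries. The submitters' processing notes name the build hg38 and these tools: featureCounts, edgeR 3.12.1, R 3.3.3, deepTools 3.0.2, SAMtools 1.7 and HISAT2 2.0.4. Not given in the sources used here are what each tool did, the annotation, any strand setting and the rule for listing a gene. As TPM, the authors' log2 values sum to 1e+06 per library and include a small prior count. Whole reads were recovered for 100% of genes (tolerance 1e-05 reads, largest distance 6.1e-09), with 7848089 to 11393206 reads per library; a limit of 3 reads is then 0.263 to 0.382 reads per 1e+06, and this covers counting error only.

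Identifiers were matched to GENCODE 44 (15138 of 15258). The 14512 genes averaging 1 TPM or more entered limma 3.58.1 (R 4.3.3) on the deposited values, with a variance trend, 1 mean per line, 6 residual degrees of freedom and two-sided Benjamini-Hochberg adjustment over all 14512 genes; a gene passed at an adjusted p under 0.05. The method was tested on simulated data. The log2 ratio of CDT1 to GMNN was tested by exact permutation. Alternatives changed the scale (log2(TPM + 1), log2(TPM + 5)), the filter (none, or 5 TPM), the normalization (median centring, quantile), the model (no variance trend, a replicate block, only the 2 lines compared), the values (limma-voom on recovered reads, or the median of 25 neighbours on each side subtracted) and the libraries (each left out in turn).

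The members and lists were chosen with earlier results of these data known. From each list up to 4 genes were named, first those passing in both clones in the same direction with the largest mean change, then those passing in 1 clone, then the most abundant; GMNN, PCIF1, nearest genes and the 5 genes of most similar pattern were named as well; 1 gene so chosen is not reported here. The E2F-type words, head-to-head pairs and start bases were chosen after seeing the data.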

Additional observations from a re-analysis of the deposited data

Results flagged for a closer look

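The clones differed from each other in 2 licensing genes and 3 regulators, each by the limma test of KO2 against KO1 over all tested genes. MCM6 was lower in KO2 than in KO1 (log2 difference -0.199, adjusted p = 0.00343), and MCM7 was higher (0.144, adjusted p = 0.0297). With neighbouring genes subtracted MCM6 had an adjusted p of 0.0562, and MCM7 had 0.0859 with no variance trend. Of the regulators, SKP2 (-0.177, adjusted p = 0.0323) and CCNF (-0.454, adjusted p = 0.00264) were lower in KO2. MCMBP was higher in KO2 (0.331, adjusted p = 0.000101), beside a neighbour median of 0.318 in KO2 and 0.00034 in KO1 against control. With 28.7% of all tested genes passing this comparison, differences between the clones were common.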

How the results depend on the processing

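MCM4 and ORC1 passed in both clones, with a higher level, under all 20 alternatives of each comparison. Of the 200 member values in KO1, 188 kept their side of the threshold, 8 lost and 4 gained a call; in KO2 193 kept it and 7 gained a call, and between the clones 193 kept it and 7 lost one. For the mean of both clones 176 of 190 kept it and 14 lost a call. No called value changed sign in these alternatives. The count of genes passing was 5 in KO1 and 3 with neighbouring genes subtracted, 2 in KO2 and 6 with neighbouring genes subtracted. Other settings moved single calls as well. In KO1 CDC6 was lost with median centring and on recovered reads, MCM6 was lost on recovered reads, and CDT1 was gained on recovered reads and with quantile normalization. In KO2 MCM3 was gained with median centring and CDT1 on recovered reads. Leaving out a library also moved single calls in each clone. Between the clones it was 2, and 1 with no variance trend or with neighbouring genes subtracted, and 1 to 2 when 1 library was left out. For the mean of both clones it was 5, and 3 to 5 when 1 library was left out, with 3 without control replicate A or control replicate B. In KO1 CDC6 passed in 15 of 20 alternatives, MCM3 in 18 and MCM6 in 19; why the calls ended was not tested. The replicate letters did not pair the libraries (correlation of deviations -0.0736 to 0.0371 for the same letter, -0.109 to 0.123 for different letters), and with the replicate letter as a block 1 gene passed between the clones. On recovered reads limma-voom called 2640 genes higher and 2962 lower in KO1, and 2365 higher and 2691 lower in KO2. The median of all genes moved by less than 0.1 in log2 under every scaling tried. Depth limits precision most for genes with few reads, and the 10 genes had at least 500 reads per library.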
